A study of Mus musculus with 12 samples.

Results

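These are the m6A peaks whose centre the authors' annotation placed in the last exon of a gene. They number 265 of the 1233 differential peaks listed (21.5%) and lie in 250 genes. A peak is a stretch of RNA enriched by an antibody against N6-methyladenosine (m6A), and membership was read from the authors' class of the peak centre alone. The list itself holds peaks that the authors had found to differ between genotypes on these same libraries, so the counts below describe differences that were selected and are not independent evidence of them.

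The knockout islets (β-Mettl3-KO) carried Mettl3 flox/flox with RIP-Cre, a Cre driven by an insulin promoter, so deletion is directed to the insulin-producing cells. The control islets were Mettl3 flox/flox, and no Cre is named for them, so a control for Cre alone is not among the groups. All mice were C57BL/6, were fed normal chow and were 8 weeks old. RNA of 12 knockout and 9 control mice was pooled into 3 replicates per genotype, called pools here. Each pool gave an immunoprecipitated (IP) library and an input library, and input stands for the RNA before the antibody. Whole islets were used, so fewer cells of a type and less RNA per cell cannot be told apart. Total reads ranged from 16832779 to 22257803 over the 12 libraries. The share of IP reads that fell in listed peaks was 9.73%, 8.54% and 7.83% in the knockout libraries, against 9.15%, 13.5% and 14.2% in the control libraries, so control pool 1 lay within the range of the knockout pools. Mettl3 and the islet hormone genes were not analysed here.

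METTL3 carries the methyltransferase activity that adds m6A to nascent mRNA, within a larger writer complex. It acts on adenosine within a short consensus called DRACH, in which A, G or T is followed by A or G, then by A and C, then by A, C or T. In mammalian mRNA the mark is concentrated near stop codons and in long internal and last exons, where reader proteins bound to it influence decay, export and translation. Exon junction complexes keep the writer away from short, junction-rich stretches of RNA, so that long last exons can be methylated.

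To show the kind of site that these peaks hold, 12 stretches of 29 bases are given from the members that recur below, in GRCm38, read 5′ to 3′ along the transcript. Capitals mark the DRACH motif nearest the peak centre, taking one that reads GGAC followed by A, C or T where the peak had it. Because they were picked for the motif, its presence in them is no finding, and no base was measured as methylated.
Pcsk1 (chr13:75132283-75132311, plus strand, coding): gcaagctctcatGGACAtcctaaatgagg
Slc30a8 (chr15:52335246-52335274, plus strand, coding): cgaagaccctcaGGACTagctcggtcaca
Kcnmb2 (chr3:32198291-32198319, plus strand, coding): gttgctatggtgAAACTaactcagtacct
Rfx6 (chr10:51729772-51729800, plus strand, coding): ccgtgtttatggGGACAgcagctggagac
Hspa5 (chr2:34775969-34775997, plus strand, coding): ccaccaggatgcGGACAttgaagacttta
Depp1 (chr6:116652197-116652225, plus strand, coding): acctgaaaagctGGACTtctagaaagtcc
Gipr (chr7:19156823-19156851, minus strand, 3′UTR): agaagacccctgGGACTggatggttgtca
Chrm3 (chr13:9878171-9878199, minus strand, coding): tacaggcctctgGGACAgaagcggaagca
Zfp292 (chr4:34811391-34811419, minus strand, coding): aaagaattccttGGACAcagaatagtacg
Zfp292 (chr4:34806374-34806402, minus strand, coding): gaattggaacaaGGACAagtaaggcagaa
Eng (chr2:32681941-32681969, plus strand, 3′UTR): gcctcctcacctGGACTggcacaacttcg
Dhrs3 (chr4:144927365-144927393, plus strand, 3′UTR): aggtcaactccaGGACCtttgtgcaagac

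Several of these sites lie at the very end of the reading frame. Counted from the last base of the stop codon, the adenosine of the motif is at -4 in Slc30a8, -20 in Rfx6 and -22 in Pcsk1, and in Slc30a8 the motif overlaps the stop codon TAG by 1 base. In Kcnmb2, whose peak holds 7 DRACH motifs but 0 of the GGAC kind, the site shown is at -54. The sites of the Zfp292 peaks, by contrast, are at -6444 and -1427, inside a single long coding last exon.

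The members were mainly peaks over the stop codon. Placed on GENCODE M21 transcripts, all 265 genomic centres lay in a last exon, and after splicing 105 lay in coding sequence, 120 in the 3′UTR and 40 in noncoding transcripts. Of the 225 members on coding transcripts, 185 covered the stop codon (82.2%), 34 lay wholly in coding sequence and 6 wholly in the 3′UTR. The centre was within 200 bases of the stop codon in 110 and within 500 bases in 174 of the 225, with a median distance of 209 bases. In the class that the authors call 3′UTR, with 373 listed peaks, the median distance was 436 bases. The last exons were long, with a median of 2549 bases over the 208 members on coding transcripts with several exons. Peaks spanned 108 to 3269 bases, with a median of 690.

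**Figure D1:**
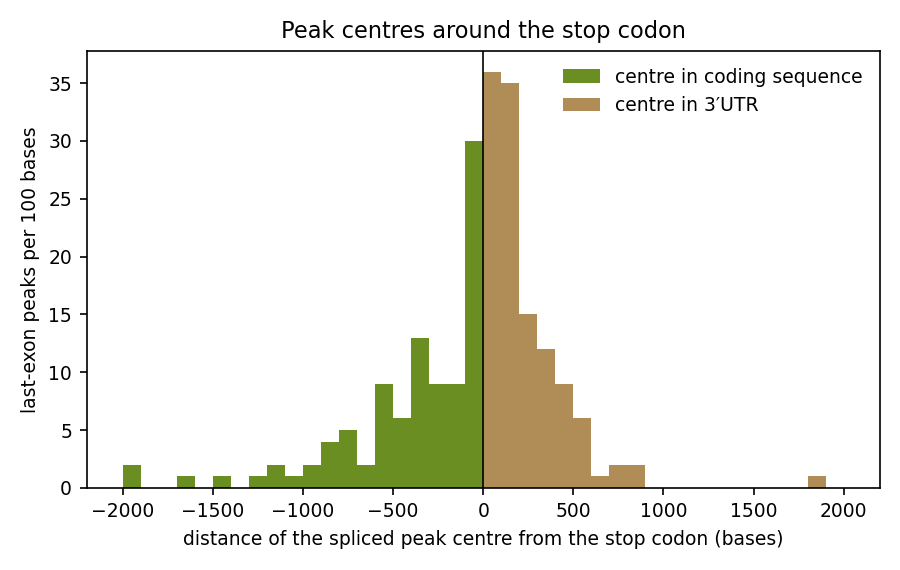
Number of last-exon peaks per 100 bases against the distance of the spliced peak centre from the last base of the stop codon, for the 216 of 225 coding members within 2000 bases (the other 9 lie beyond the axis). Bars are split by whether the centre lay in coding sequence or in the 3′UTR. Of the 225, 110 lie within 200 bases of the stop codon.

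The class depended on the strand of the gene. Members numbered 219 on the plus strand and 46 on the minus strand, whereas the whole list had 613 and 620. The 3′UTR class was split the other way, with 112 on the plus and 261 on the minus strand. Of 305 listed peaks on the plus strand that covered a stop codon, 178 were classed as last exon and 9 as 3′UTR, while of 314 on the minus strand 7 were classed as last exon and 165 as 3′UTR. A further 90 and 119 of these plus-strand and minus-strand peaks had their genomic centre in an intron of the authors' annotation. The end of the peak was given the class 3′UTR in 161 of the 219 plus-strand members and in 0 of the 46 minus-strand members. On coding transcripts, 7 of 27 minus-strand members covered a stop codon, against 178 of 198 on the plus strand. The median log2 change in enrichment was -1.05 over 219 plus-strand and -1.04 over 46 minus-strand members. That of IP was -0.75 over plus-strand and -0.63 over minus-strand members, with IP rises at 7 plus-strand and 5 minus-strand members and IP falls at 132 and 23. These differences between strands were not tested.

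**Figure D2:**
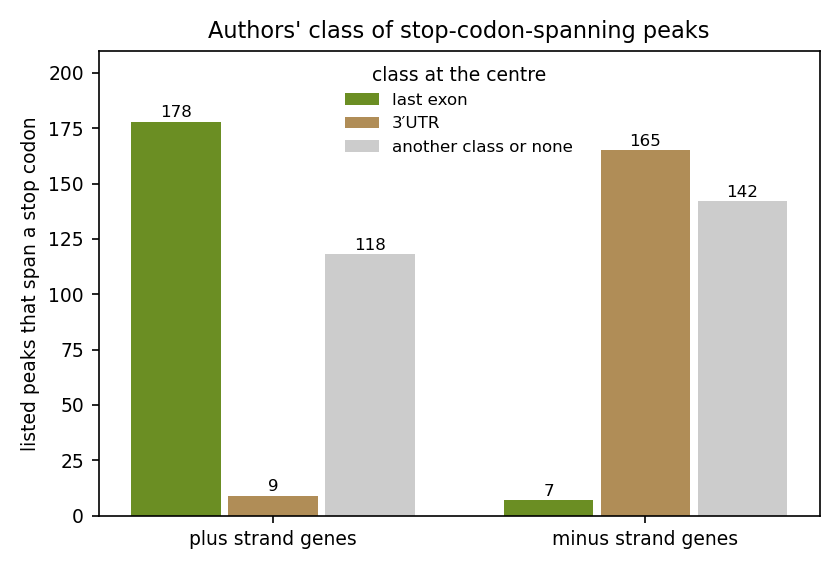
Number of listed peaks covering a stop codon, by strand of the gene and by the authors' class of the peak centre. On the plus strand 178 of 305 were classed as last exon, and on the minus strand 7 of 314 were, with 165 classed as 3′UTR.

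The m6A enrichment of the members was lower in the knockout islets. Enrichment is IP over input in RPM, reads scaled to library size at the peak, and its median over the 265 members was 5.48, 4.16 and 4.15 in the knockout pools, against 6.20, 9.80 and 11.3 in the control pools. All 3 knockout medians lay below all 3 control medians, and control pool 1 was the nearest to the knockout. The means of these medians were 4.60 ± 0.764 in knockout and 9.09 ± 2.61 in control pools (SD, n = 3 pools each). Over all 1233 listed peaks the medians were 4.47, 3.44 and 3.42 in knockout and 5.23, 8.09 and 9.27 in control pools. The authors' table listed 246 members as lower and 19 as higher, and 92.9% of all listed peaks were lower and 7.14% higher.

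**Figure D3:**
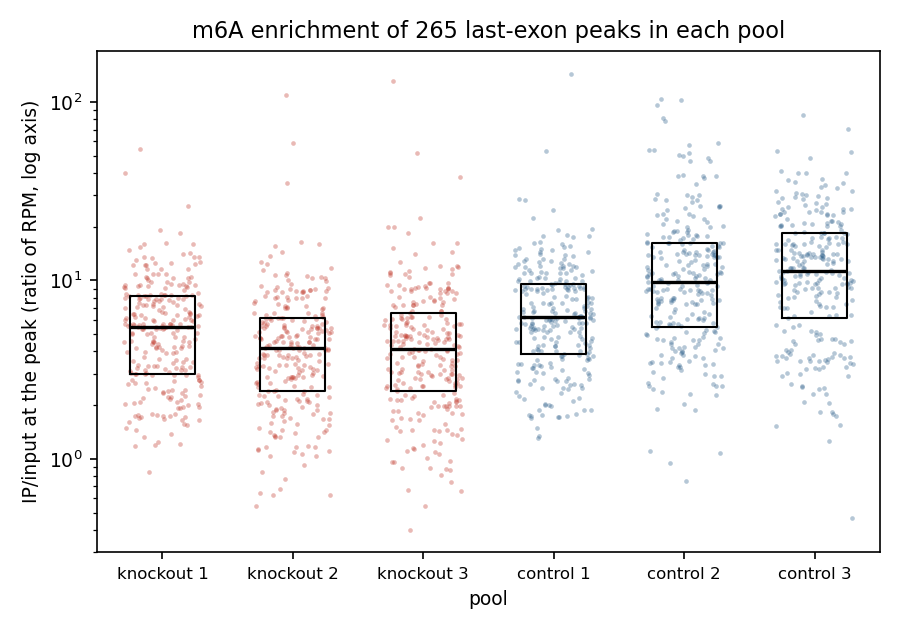
Enrichment (IP over input, log axis) of the 265 last-exon peaks in the 3 knockout and 3 control pools. Points are peaks, boxes span the quartiles and the line in each box is the median, which was 5.48, 4.16 and 4.15 in the knockout and 6.20, 9.80 and 11.3 in the control pools.

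By edgeR's quasi-likelihood test, with total reads as library sizes and p-values adjusted over the whole list at a threshold of 0.05, enrichment fell at 158 members and rose at 8. The background for these counts is that 55.6% of all listed peaks fell and 2.27% rose, and 59.6% of the members fell. The median log2 change was -1.05 over the members and -1.02 over all listed peaks. All 3 knockout pools were below all 3 control pools at 144 members and above them at 8, beside 53.5% and 3.0% of all listed peaks. The shares were thus near those of the whole list, and no difference between the members and other peaks was tested.

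These calls depended on how libraries were scaled and on which pools were kept. When TMM factors from all listed peaks replaced total reads, the median change of all listed peaks was -0.067 and that of the members -0.094. TMM takes most peaks as unchanged, whereas 92.9% of this selected list was lower in the authors' table. It therefore centres the list near 0, which shrinks falls and enlarges rises. A TMM value is relative to the list and cannot show whether a fall common to the list is kept. The TMM fit had 159 of 265 members below 0, 2 that fell and 10 that rose. Of all 1233 listed peaks it had 699 below 0, 9 that fell and 39 that rose. Of the 166 calls 8 were kept with TMM, the falls of Pikfyve and Gm46123 and the rises of Eng, Dhrs3, Arhgap30, Tmem26, Sox7 and Gm10167, which are named here after their values were seen. Falls numbered 27 and 32 without knockout pool 2 or 3, 44 and 37 without control pool 2 or 3, and 209 without control pool 1. Over all listed peaks these numbers were 91, 111, 168, 141 and 976, so the whole list shifted too. The falls named below are thus changes relative to total reads.

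IP and input could be read apart, and both moved. IP signal fell at 155 members and rose at 12 by the same edgeR fit (64.8% and 2.92% of all listed peaks). Input rose at 29 members (6.0% of all listed peaks) and fell at 1 (0.649% of all listed peaks). The 29 are 10.9% of the members, and 45 of the 968 other listed peaks rose in input. Of the 158 falls in enrichment, 109 came with a called IP fall, 27 with a called input rise, 5 of these with both, and 27 with neither. Of the 686 falls in the whole list, 519 came with an IP fall, 70 with an input rise, 21 with both and 118 with neither. At 46 members, and at 280 listed peaks in all, the IP fell while the change in enrichment did not pass. Of the 29 input rises, 8 had a mean input count under 30. With any 1 pool left out, 35 of the 155 IP falls and 9 of the 29 input rises still passed, while 12 of the 158 enrichment falls and 0 of the 8 rises did. With TMM, 4 of the 155 IP falls, all 12 IP rises and 18 of the 29 input rises still passed. An IP fall that held with any 1 pool left out was thus still a change relative to total reads, unless a TMM value is given.

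**Figure D4:**
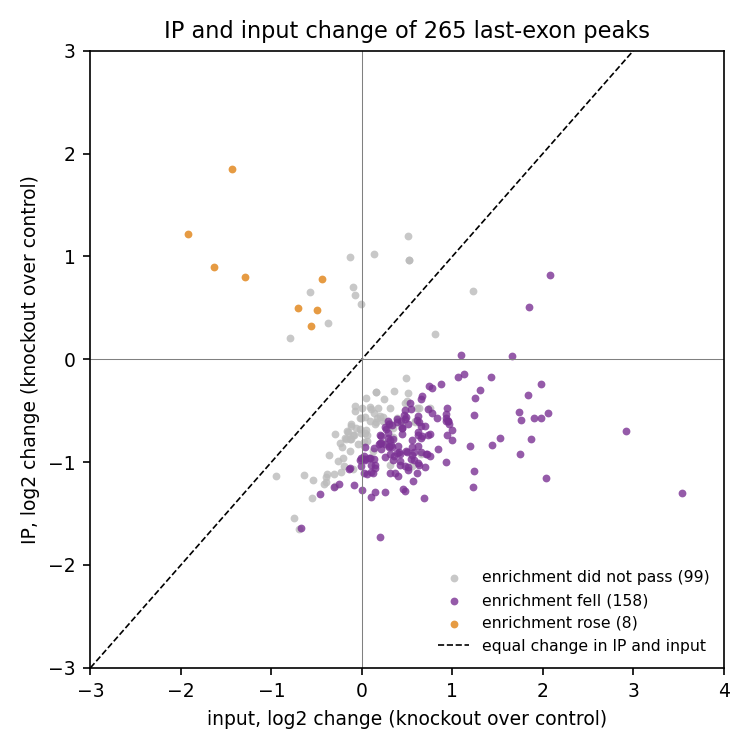
Log2 change of IP against log2 change of input (knockout over control, edgeR) for the 265 last-exon peaks, coloured by the call for enrichment: 158 fell, 8 rose and 99 did not pass. Points below the dashed line lost enrichment, and 109 of the 158 falls came with a called IP fall and 27 with a called input rise.

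Members of the insulin granule and secretion list were 3, and all were lower in the knockout, as were 92.9% of all listed peaks. Pcsk1 encodes the prohormone convertase that starts the processing of proinsulin, and its peak (chromosome 13, 75131985 to 75132434) covers the stop codon. Its enrichment was 5.68, 3.69 and 2.76 in the knockout pools, against 6.02, 14.3 and 10.6 in the control pools. The groups did not overlap, although knockout pool 1 and control pool 1 were close. It averaged 4.04 ± 1.49 in knockout and 10.3 ± 4.17 in control pools (SD, n = 3 pools each), a log2 change of -1.43 ± 0.37 (SE, edgeR adjusted p = 0.00268), which did not pass without knockout pool 3 or control pool 2 (edgeR adjusted p up to 0.0552 with 1 pool left out). IP averaged 141 RPM in knockout and 344 RPM in control pools with input at 36.3 and 32.9 RPM, and the IP fall of -1.29 passed with any 1 pool left out (edgeR adjusted p up to 0.0128).

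Slc30a8, the zinc transporter of insulin granules, had enrichment of 2.26, 1.78 and 1.46 in the knockout pools, against 2.36, 3.54 and 3.27 in the control pools (chromosome 15, 52335231 to 52335559). The groups were separate by a narrow margin, and the log2 change of -0.75 ± 0.36 (SE) missed the threshold (edgeR adjusted p = 0.0603). Its IP fell (log2 change -1.14, edgeR adjusted p = 0.000245), a call kept with any 1 pool left out (up to 0.0184). Input averaged 89.7 RPM in knockout and 118 RPM in control pools, a log2 change of -0.40 (edgeR adjusted p = 0.399). Rims2, a scaffold of vesicle docking at release sites, had enrichment of 11.6, 10.3 and 9.40 in the knockout pools, against 15.1, 46.7 and 27.7 in the control pools. The groups did not overlap, and the control pools were far from each other. Its log2 change was -1.40 ± 0.41 (SE, edgeR adjusted p = 0.00691), lost without knockout pool 2 or 3 or control pool 2 (up to 0.0865). Its IP alone did not pass (log2 change -0.57, edgeR adjusted p = 0.0576). Over the whole list 4 of 8 peaks of granule and secretion genes fell, beside 55.6% of all listed peaks.

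Genes of membrane transport and other membrane proteins, taken by the start of their symbols, held 12 members, of which 9 fell and 1 rose. In the whole list 45 of the 63 such peaks fell and 1 rose, and 55.6% of all listed peaks fell. The members Tmem185b, Tmem62, Tmem87b, Tmem26 and Tmem167 entered as transmembrane proteins by symbol, and they gave 4 of the 9 falls and the rise. Kcnmb2, named after its values were seen, encodes an auxiliary subunit of large-conductance calcium-activated potassium channels. Its peak (chromosome 3, 32198155 to 32198453) had enrichment of 1.33, 0.544 and 0.958 in the knockout pools, against 2.01, 5.86 and 3.53 in the control pools. The groups did not overlap, and the knockout values were near or below 1, the level of no enrichment. The log2 change was -1.92 ± 0.51 (SE, edgeR adjusted p = 0.00301) and was lost without knockout pool 2 (0.0624). The fall in IP, -1.72 on the log2 scale, passed with any 1 pool left out (up to 0.0183) and with TMM (log2 change -0.98, edgeR adjusted p = 0.0271), while input changed by 0.20 (edgeR adjusted p = 0.826).

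Slc2a5, a fructose transporter, had enrichment of 10.9, 8.10 and 11.3 in the knockout pools, against 10.97, 20.0 and 23.5 in the control pools. The groups overlapped, since knockout pool 3 exceeded control pool 1. Its enrichment change of -0.85 (edgeR adjusted p = 0.0345, up to 0.192 with 1 pool left out) was lost with the IP and input of a pool kept together as a block, called the pool block (edgeR adjusted p = 0.067), and turned to 0.12 with TMM. Its IP fall was steadier, at 450 RPM in knockout and 1118 RPM in control pools (log2 change -1.31, edgeR adjusted p = 2.09e-05, up to 0.00719 with 1 pool left out and 0.0468 with TMM). Atp2b1, a pump that expels calcium from the cell, had enrichment of 15.3, 13.7 and 8.50 in the knockout pools, against 15.4, 46.5 and 28.5 in the control pools, so knockout pool 1 all but met control pool 1. The fitted log2 change was -1.30 ± 0.38 (SE, edgeR adjusted p = 0.00669), lost without knockout pool 3 or control pool 2 (up to 0.0925). The chloride-proton exchanger Clcn3 had a change of -0.93 (edgeR adjusted p = 0.0337), not passing in the pool block (0.0556) and turning to 0.047 with TMM. It was also lost without knockout pool 2 or 3 or control pool 2 or 3 (up to 0.157). Kcnq1ot1 (-1.59, edgeR adjusted p = 0.00917, lost without knockout pool 2 or 3 or control pool 3, up to 0.102) also entered by its symbol only, since it is an antisense RNA, and its input rose by 1.42 (edgeR adjusted p = 0.00485, 0.128 without knockout pool 2).

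Receptor genes contributed 4 members in 3 genes, all with lower IP in the knockout, and IP fell at 64.8% of all listed peaks. Gipr, the receptor of the incretin hormone GIP, had enrichment of 8.22, 6.38 and 5.40 in the knockout pools, against 10.7, 10.4 and 13.4 in the control pools. The groups were apart, with a log2 change of -0.80 ± 0.40 (SE) that missed the threshold (edgeR adjusted p = 0.0649), and IP fell (log2 change -1.11, edgeR adjusted p = 0.000841, up to 0.0228 with 1 pool left out). Chrm3, the muscarinic receptor through which acetylcholine raises insulin release, carried a pair of overlapping members at one place in its coding last exon. The one at chromosome 13, 9877789 to 9879016, had enrichment of 8.25, 5.38 and 9.64 in the knockout pools, against 11.8, 16.8 and 20.5 in the control pools, without overlap. Its log2 change was -1.17 ± 0.41 (SE, edgeR adjusted p = 0.0156), lost without knockout pool 2 or 3 or control pool 2 or 3 (up to 0.139). Gpr158, an orphan receptor, had 6.63, 6.16 and 4.89 in the knockout pools, against 7.10, 13.0 and 14.1 in the control pools, also without overlap. Its enrichment change of -0.96 (edgeR adjusted p = 0.0262) was lost without the same 4 pools (up to 0.132) and was 0.022 with TMM, while its IP fall of -1.21 held with any 1 pool left out (up to 0.0143). In the whole list 10 of 12 peaks of receptor and cAMP genes fell, in enrichment, beside 55.6% of all listed peaks. The 12 peaks lie in 7 genes.

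The other lists of β-cell and signalling genes held few members. Rfx6, a transcription factor needed to form and maintain β-cells, had enrichment of 2.57, 1.94 and 1.64 in the knockout pools, against 2.81, 6.08 and 4.56 in the control pools, without overlap. The fitted log2 change was -1.15 ± 0.42 (SE, edgeR adjusted p = 0.0204), lost without knockout pool 2 or 3 or control pool 2 or 3 (up to 0.114). It is the 1 member of the β-cell factor list, in which 11 of 14 listed peaks fell and 1 rose. Of all listed peaks, 55.6% fell and 2.27% rose. Rictor, a defining subunit of the kinase complex mTORC2, had 9.23, 8.73 and 8.11 in the knockout pools, against 8.43, 39.0 and 24.1 in the control pools. Knockout pools 1 and 2 lay above control pool 1, so the groups overlapped. The log2 change was -1.17 (edgeR adjusted p = 0.0124), lost without the same 4 pools (up to 0.152), and IP did not pass (-0.55, edgeR adjusted p = 0.0576). Setd5, a chromatin regulator with a SET domain, had an enrichment change of -0.66 that did not pass (edgeR adjusted p = 0.102), while its IP fell relative to total reads. Genes of the m6A machinery and markers of other islet endocrine cells had 0 members.

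Hspa5 and Dnajc3, which encode the chaperone BiP and a co-chaperone of the endoplasmic reticulum, were the 2 members of the protein folding list. In the whole list 5 of 8 such peaks fell and 1 rose, beside 55.6% and 2.27% of all listed peaks. Hspa5 had enrichment of 12.3, 8.55 and 7.31 in the knockout pools, against 9.31, 27.5 and 22.2 in the control pools. Knockout pool 1 exceeded control pool 1, so the groups overlapped. The log2 change was -1.12 ± 0.34 (SE, edgeR adjusted p = 0.00846), lost without knockout pool 2 or 3 or control pool 2 or 3 (up to 0.0986). IP averaged 1586 RPM in knockout and 1874 RPM in control pools, a difference that did not pass (log2 change -0.24, edgeR adjusted p = 0.335), while input averaged 177 RPM in knockout and 96.2 RPM in control pools (log2 change 0.88, edgeR adjusted p = 0.00899, lost without those 4 pools and with TMM, up to 0.14 and 0.0826). Dnajc3 had a change of -1.01 (edgeR adjusted p = 0.0334) that was lost in the pool block (0.0757), turned to 0.034 with TMM and came with no called change in IP (-0.35, edgeR adjusted p = 0.243).

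**Figure D5:**
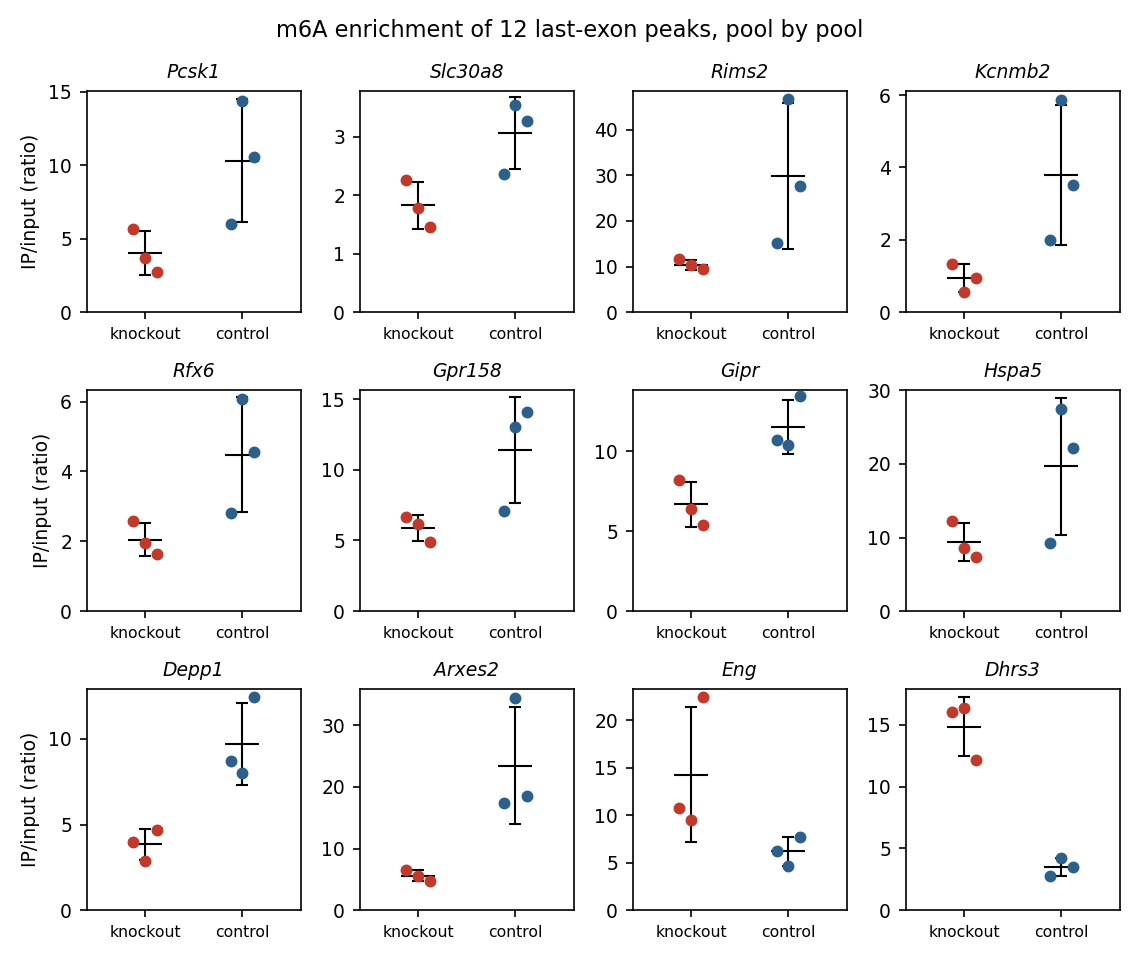
Enrichment (IP over input) of 12 last-exon peaks in each of 3 knockout and 3 control pools, with mean and SD as bars. Pcsk1, Slc30a8, Rims2, Kcnmb2, Rfx6, Gpr158, Gipr, Depp1 and Arxes2 have all knockout pools below all control pools, Hspa5 overlaps at 12.3 and 9.31, and Eng and Dhrs3 are higher in the knockout.

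Zinc finger genes gave 13 members, all lower, of which 9 fell and 0 rose, beside 32 of the 50 such peaks in the whole list. Of all listed peaks, of any gene, 92.9% were lower and 55.6% fell. Zfp292, a zinc finger protein, carried 3 members in its last exon, which holds 7083 coding bases. The peak farthest from the stop codon (chromosome 4, 34810699 to 34811959) had enrichment of 10.9, 8.13 and 6.39 in the knockout pools, against 9.12, 23.2 and 23.3 in the control pools. Knockout pool 1 exceeded control pool 1, and the log2 change was -1.17 ± 0.38 (SE, edgeR adjusted p = 0.012). The middle peak changed by -0.89 (edgeR adjusted p = 0.0345, lost in the pool block at 0.062 and at 0.10 with TMM) and the one nearest the stop codon by -0.90 (edgeR adjusted p = 0.052). Both called changes were lost without knockout pool 2 or 3 or control pool 2 or 3 (up to 0.0917 and 0.162). Zfp652, a zinc finger repressor, had 7.25, 5.15 and 6.10 in the knockout pools, against 12.6, 8.45 and 20.1 in the control pools, without overlap. Its log2 change was -1.14 ± 0.40 (SE, edgeR adjusted p = 0.0162), lost without knockout pool 2 or 3 or control pool 3 (up to 0.186). Zbtb14 (-0.76, edgeR adjusted p = 0.0672) and Zfp646 (-0.56, edgeR adjusted p = 0.18) did not pass in enrichment, while the IP of Zbtb14 fell (log2 change -0.96, edgeR adjusted p = 0.00205, up to 0.0418 with 1 pool left out).

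Ubiquitin genes gave 14 members, all lower, of which 7 fell and 0 rose. In the whole list 30 of 52 such peaks fell, and of all listed peaks 92.9% were lower and 55.6% fell. Genes entered by the start of their symbols, and Usp6nl, a GTPase-activating protein, is one that is no ubiquitin enzyme. March8, a membrane-bound ubiquitin ligase, had enrichment of 9.24, 4.16 and 3.05 in the knockout pools, against 6.12, 14.03 and 13.6 in the control pools. Knockout pool 1 exceeded control pool 1, so the groups overlapped. The log2 change was -1.23 ± 0.41 (SE, edgeR adjusted p = 0.0132), lost without knockout pool 2 or 3 or control pool 2 or 3 (up to 0.124), while the IP fall of -1.10 (edgeR adjusted p = 0.00116) held with any 1 pool left out (up to 0.0412). Fbxo42, a substrate receptor of a ubiquitin ligase, changed by -0.93 (edgeR adjusted p = 0.0408), lost in the pool block (0.0555) and without the same 4 pools (up to 0.258), and was 0.020 with TMM. Usp34 and Otud4, both deubiquitinases, had enrichment changes of -0.68 and -0.55 that did not pass (edgeR adjusted p = 0.101 and 0.173). The IP of both fell relative to total reads. Usp51, a deubiquitinase named after its values were seen, had IP of 23.8 RPM in knockout and 74.1 RPM in control pools. Its IP fell (log2 change -1.64, edgeR adjusted p = 4.06e-06, up to 0.00532 with 1 pool left out and 0.016 with TMM). Its enrichment changed by -0.96 (edgeR adjusted p = 0.0415, lost in the pool block at 0.0657 and up to 0.266 with 1 pool left out) and was 0.017 with TMM. Mdm4-ps, with a change of -2.34, is a processed pseudogene, so its reads are uncertain. The 3 members among small GTPases and their regulators were Rab22a (-1.17, edgeR adjusted p = 0.0177, up to 0.178 with 1 pool left out), Arhgap30 (3.28, below) and Tbc1d19 (-0.66, edgeR adjusted p = 0.249).

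The largest falls with a mean input count of at least 30 were mostly in little-known transcripts, and several came with more input. The mean covers both genotypes, so the control input can be lower where input rose. Gm46123, a noncoding RNA (chromosome 9, 83353500 to 83353799), had enrichment of 1.18, 1.54 and 0.816 in the knockout pools, against 9.06, 9.80 and 12.9 in the control pools. The groups were far apart, with a log2 change of -3.19 ± 0.67 (SE, edgeR adjusted p = 0.000265) that passed with any 1 pool left out and with TMM (-2.17, edgeR adjusted p = 0.0455). Its input averaged 3.08 RPM in knockout and 0.742 RPM in control pools (log2 change 2.04, edgeR adjusted p = 0.00312). The control ratios thus rest on few input reads, and the size of the fall is uncertain. Arxes2, an intronless gene of the X chromosome, had 6.49, 5.54 and 4.67 in the knockout pools, against 17.5, 34.5 and 18.5 in the control pools. No pools overlapped, and the change of -2.04 ± 0.42 (SE, edgeR adjusted p = 0.000251) passed with any 1 pool left out (up to 0.0184) but not with TMM (-1.03, edgeR adjusted p = 0.0994). Arxes2 has a close copy in the genome, so its reads are uncertain.

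Alg10b, a glucosyltransferase of N-glycan assembly, had 2.50, 2.31 and 1.76 in the knockout pools, against 4.59, 9.74 and 14.8 in the control pools. Its change of -2.04 (edgeR adjusted p = 0.00238) was lost only without control pool 3 (0.0533), and its IP fell by 1.35 (edgeR adjusted p = 0.00132). The other falls of this kind were Ipp (-2.27, lost without knockout pool 2 or control pool 3), 4632428C04Rik (-1.93), 3222401L13Rik (-2.55) and Gm45871 (-2.67). Those of the last 3 passed with any 1 pool left out but not with TMM (edgeR adjusted p = 0.269, 0.102 and 0.0689). Ipp and Alg10b did not pass with TMM either (edgeR adjusted p = 0.328 and 0.152). The input of 3222401L13Rik also rose.

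The largest change of all rested on very few input reads. Pikfyve, a lipid kinase of endosomes named after its values were seen, had enrichment of 2.33, 1.49 and 0.401 in the knockout pools, against 18.1, 104 and 28.9 in the control pools (chromosome 1, 65273660 to 65273840). Its input counts were 23, 23 and 43 in the knockout and 3, 1 and 3 in the control libraries. The fitted log2 change of -4.83 is therefore uncertain in size.

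Members with more RNA in the knockout input included Depp1 and Prss23os, whose enrichment fell, while the IP of Prss23os rose. Depp1, a target of FoxO factors linked to autophagy, had input of 36.1 ± 9.27 RPM in knockout and 9.998 ± 2.37 RPM in control pools (SD, n = 3 pools each). The input rose (log2 change 1.85, edgeR adjusted p = 1.58e-08) and passed with any 1 pool left out and with TMM. Its IP changed by 0.51 (edgeR adjusted p = 0.0748), and its enrichment of 3.96, 2.88 and 4.67 in the knockout pools lay below the 8.71, 8.00 and 12.5 of the control pools (log2 change -1.34, edgeR adjusted p = 0.00577, lost without knockout pool 2 or control pool 3, up to 0.0811). Prss23os, transcribed opposite to Prss23, fell in enrichment (log2 change -1.26, edgeR adjusted p = 0.0153, lost without knockout pool 2 or 3 or control pool 3, up to 0.144, and -0.30 with TMM). It rose in input by 2.08 (edgeR adjusted p = 6.92e-08) and in IP by 0.82 (edgeR adjusted p = 0.014, up to 0.0604 with 1 pool left out). Whether the counts used strand is not given in the sources used here, so its reads and those of Prss23 cannot be told apart. Fndc10 was the 1 member with lower input, at 4.41 RPM in knockout and 8.54 RPM in control pools (log2 change -0.95, edgeR adjusted p = 0.0426, up to 0.313 with 1 pool left out). Its IP fell alongside (-1.13), and its enrichment changed by -0.18 (edgeR adjusted p = 0.68). At an unadjusted p under 0.05, 8 members had lower input.

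Of the 8 rises, only that of Eng had a mean input count of at least 30 and no overlap between the groups. Eng encodes endoglin, a co-receptor of TGF-β on endothelial cells. Its enrichment was 10.8, 9.54 and 22.5 in the knockout pools, against 6.24, 4.66 and 7.68 in the control pools. The log2 change was 0.97 ± 0.41 (SE, edgeR adjusted p = 0.0363), lost without knockout pool 2 or 3 or control pool 2 or 3 (up to 0.186) and kept with TMM (1.86, edgeR adjusted p = 0.0197). Neither IP (0.48, edgeR adjusted p = 0.111) nor input (-0.50, edgeR adjusted p = 0.355) passed alone. All 3 members on the list of non-endocrine markers were higher in the knockout. Cdh5, an endothelial cadherin, had an enrichment change of 0.69 (edgeR adjusted p = 0.11) with an IP rise of 0.62 (edgeR adjusted p = 0.0428, up to 0.171 with 1 pool left out), and the pericyte marker Cspg4 one of 1.23 (edgeR adjusted p = 0.0911). In the whole list 8 of 9 such peaks were listed higher, 4 rose and 1 fell. Of all listed peaks, 7.14% were listed higher, 2.27% rose and 55.6% fell. The summed level of these markers in input was not analysed, and its part in these rises was not tested.

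Most of the other 7 rises were in scarce RNA, and all but Arhgap30 are named after their values were seen. Dhrs3, an enzyme that reduces retinal, had enrichment of 16.02, 16.4 and 12.1 in the knockout pools, against 2.79, 4.24 and 3.50 in the control pools. The groups were far apart, but the input counts were 11, 11 and 13 in the knockout and 29, 15 and 37 in the control libraries. Its log2 change was 2.10 ± 0.68 (SE, edgeR adjusted p = 0.0114), lost only without knockout pool 2 (0.0789) and kept with TMM. Arhgap30, a GTPase-activating protein, rose by 3.28 in enrichment (edgeR adjusted p = 0.00238, 0.131 without control pool 3) and by 1.85 in IP (edgeR adjusted p = 0.00323, up to 0.0442 with 1 pool left out). Tmem26, Sox7 and 3110080O07Rik rose on mean input counts of 4.0, 23.7 and 8.83. Gm10167 (1.22) is a processed pseudogene, so its reads are uncertain, and Gm26917 (0.89) is a noncoding RNA with a mean input count of 9199 at this peak. The last 5 were each lost with some pool left out (up to 0.281), and 3110080O07Rik also in the pool block (edgeR adjusted p = 0.0545).

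Of the 40 members in noncoding transcripts, 31 were listed as lower and 9 as higher, 21 fell and 3 rose in enrichment, and 11 rose in input. Of all listed peaks, 92.9% were listed as lower, 55.6% fell, 2.27% rose and 6.0% rose in input. Malat1, an abundant nuclear RNA, carried 5 of them in its single exon, of which 1 pair has the same counts. The peak at chromosome 19, 5799076 to 5799226, had enrichment of 1.72, 1.81 and 1.01 in the knockout pools, against 1.99, 4.24 and 2.53 in the control pools, and fell (log2 change -1.01, edgeR adjusted p = 0.0172, up to 0.166 with 1 pool left out; -0.062 with TMM). The peak at 5801916 to 5802077 had 2.94, 6.58 and 3.00 in the knockout pools, against 3.20, 2.47 and 1.52 in the control pools, so the groups overlapped. Its enrichment change of 0.69 did not pass (edgeR adjusted p = 0.0748), whereas IP rose by 1.20 (edgeR adjusted p = 0.00010, up to 0.0225 with 1 pool left out). The difference between these peaks was not tested.

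The 5 most enriched members in control islets, among those with a mean input count of at least 30, were in Fam171b, 3222401L13Rik, Tmem185b, 4632428C04Rik and Atp2b1. Fam171b had 8.15, 10.7 and 6.77 in the knockout pools, against 10.99, 96.7 and 16.4 in the control pools, and Tmem185b had 10.1, 12.3 and 11.8 in the knockout pools, against 12.9, 58.7 and 26.8 in the control pools. Control pool 2 was the highest in both, and without it neither fall passed (edgeR adjusted p up to 0.142 and 0.139 with 1 pool left out). The fall of Fam171b was also lost without knockout pool 3, and that of Tmem185b without knockout pool 2 or 3 or control pool 3. The 5 most enriched members in knockout islets by the same rule were in Setd5, Eng, Cdh5, Thap11 and Atp2b1. Setd5 had 16.3, 12.6 and 16.1 in the knockout pools, against 22.3, 16.1 and 37.0 in the control pools. Members with their centre in coding sequence had a median enrichment, averaged over pools, of 5.07 ± 0.735 in knockout and 11.1 ± 3.21 in control pools (SD, n = 3 pools each), and those in the 3′UTR 4.17 ± 0.657 in knockout and 7.94 ± 2.27 in control pools. The 58 members with at least 1000 coding bases in the last exon had 6.24 ± 0.831 in knockout and 12.01 ± 3.69 in control pools. The median log2 change was alike, at -1.03 for coding and -1.05 for 3′UTR centres and -0.97 for the long coding exons, and these differences were not tested.

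The members held the consensus about as often as other listed peaks, and more densely than the rest of their own exons. In the 100 bases around the spliced centre, read on the transcript strand with overlapping matches counted, 242 of 265 members had at least 1 DRACH (91.3%), against 93.5% of all 1228 windows placed. The density was 2.33 ± 1.39 per 100 bases in members (SD over peaks) and 2.52 in other listed peaks. Over whole peaks 99.2% of members held it. At least 1 GGAC followed by A, C or T lay in the windows of 38.9% of members and in 41.1% of all windows. The share of windows with DRACH was 92.4% for coding centres, 94.2% for 3′UTR centres and 80.0% in noncoding transcripts. Inside the member peaks DRACH occurred 2.35 times and the GGAC form 0.425 times per 100 bases, against 2.04 and 0.258 in the remaining bases of the same last exons. Bases were pooled over last exons of 108 to 93092 bases, so the longest weigh most. The remaining bases were not matched to the peaks for position or base composition. Bases are not replicates, and these densities are given without a test.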

How the data were processed

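m6A immunoprecipitation sequencing of pooled mouse islets gave 12 libraries, 3 IP and 3 input per genotype. Per the submitters' processing notes, fastp 0.19.11, BWA 0.7.12 and HOMER 4.9.1 were used on GRCm38.p6; the peak caller is not given in the sources used here. Per the file headers, the authors deposited read counts per peak and library, total reads, RPM values, the fold enrichment ratio of each peak, log2 fold changes, scores and p-values. Only peaks that the authors listed as differential are analysed here. Counts were fitted as 4 groups with edgeR 4.0.16 (R 4.3.3, quasi-likelihood) with deposited total reads as library sizes, and p-values were adjusted by Benjamini-Hochberg over all 1233 peaks at 0.05. Enrichment is the IP change minus the input change, and no filter on low counts was used. Standard errors are the change divided by the root of the F statistic. DESeq2 1.42.0, TMM, an input minimum, a peak fold minimum, blocks and left-out pools were alternatives, and the fit was tested on simulated data. Python 3.11.15 with pandas 2.3.3 placed the peaks on GENCODE M21 transcripts and searched motifs. Of 1108 gene identifiers, 1105 matched a symbol. In the member counts of 30 or less in input, 208 of 240 were odd, and the authors' counting behind this is not given in the sources used here. Overlapping members can share reads, and the 265 members form 256 separate regions.

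Members and gene lists were chosen with earlier results of these data known. Named genes were 1 peak per gene: up to 8 largest falls and 6 largest rises without overlap and with a mean input count of at least 30, the 4 highest and 4 lowest called input changes, the 5 most enriched peaks in each genotype, up to 4 members of each list by IP count, and up to 4 genes with several members. Lists by symbol start hold every symbol that begins so. Pools are separate biological replicates per the labels' protocols. Sequences are from the GRCm38 reference. Results at 1 gene with several members are not reported here. The IP and input of a pool come from the same RNA, so they are paired by design, although their deviations from the group means correlated at -0.0713 to 0.0641. The pool block is an alternative.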

Additional observations from a re-analysis of the deposited data

How the results depend on the processing

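The scaling decided most calls. Both TMM and DESeq2 took their factors from the listed peaks alone, which centres this selected list near 0. With TMM, falls numbered 2 in enrichment and 4 in IP, IP rises 22, input falls 7 and input rises 18, and the median log2 change was -0.094; with DESeq2 these were 5, 7, 23, 17, 27 and -0.068, with 13 enrichment rises. Among peaks named by the rule, both scalings turned the enrichment change positive (TMM then DESeq2) at Gpr158 (0.022, 0.045), Zfp292 34807341 (0.10, 0.12), Fbxo42 (0.020, 0.044), Slc2a5 (0.12, 0.14), Clcn3 (0.047, 0.070) and Dnajc3 (0.034, 0.055), and DESeq2 alone at Pstk (0.011). Members outside the rule turned too, such as Lpgat1 (0.028, 0.050). Among peaks named by the rule, both turned the IP change positive at Fam171b (0.031, 0.017), Zfp292 34807341 (0.19, 0.17), Zfp292 34810699 (0.082, 0.065), Fbxo42 (0.11, 0.10), Setd5 (0.070, 0.059), Clcn3 (0.037, 0.024), Otud4 (0.0095, 0.0011), Atp2b1 (0.15, 0.14) and Usp34 (0.16, 0.14). With 1 pool left out, enrichment falls ranged from 27 to 209 and rises from 1 to 13, IP falls from 49 to 211 and rises from 4 to 13, input falls from 0 to 5 and rises from 14 to 39, and the median from -1.26 to -0.92. At a mean input count of at least 30 there were 3 enrichment rises, 0 input falls and 17 input rises. With a peak fold of at least 5 there were 7 IP rises. Members taken by the GENCODE M21 last exon (735 peaks) gave 415 enrichment falls, 18 rises, 480 IP falls, 23 IP rises, 5 input falls and 57 input rises. Reading counts as 2 reads a pair plus 1, chosen after seeing the data, gave 0 input falls. The numbers did not pair knockout with control pools: deviations of libraries with the same number correlated at -0.328 to 0.0985 across genotypes. With the pool as a replicate block 120 members fell and 7 rose, and with the number as a block across genotypes 113 fell, 6 rose and 0 fell in input. Over all listed peaks, 520 fell and 23 rose with the first block, and 482 and 18 with the second. The causes were not tested. At 30 members the mean input count was under 30, where the ratio is imprecise.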

Other observations

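Of the 250 genes, 20 also carried a listed peak outside the last-exon class. Rfx6 had a further peak in exon 17, with enrichment of 3.42 ± 0.244 in knockout and 8.31 ± 1.77 in control pools (SD, n = 3 pools each) and a log2 change of -1.26 (edgeR adjusted p = 0.00844), beside -1.15 at its stop codon. In Zfp292, a peak that the authors classed as 3′UTR but that lies in coding sequence on GENCODE M21 had 7.58 ± 5.62 in knockout and 26.2 ± 16.1 in control pools and a log2 change of -1.93 (edgeR adjusted p = 0.000265). The input at this peak rose by 1.24 (edgeR adjusted p = 0.00197), and IP changed by -0.69 (edgeR adjusted p = 0.0243). Pikfyve had an intron-class peak that changed by -0.97 (edgeR adjusted p = 0.0415), beside -4.83 at its stop codon, where the control input counts were 3, 1 and 3. In Lpgat1, an acyltransferase, enrichment changed by -0.95 (log2, edgeR adjusted p = 0.0394) at the last-exon peak, a call lost in the pool block (0.0652) and without each pool but control pool 1 (up to 0.329) and turned to 0.028 with TMM, and by -1.92 at a 3′UTR peak (edgeR adjusted p = 0.00733). These genes were named after their values were seen, and differences between peaks of 1 gene were not tested.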
